A study of Rattus norvegicus with 4 samples.

Results

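The spots described here are the 10% of spots with the least Spp1 in a kidney section from a rat given puromycin aminonucleoside (PAN), a toxin of podocytes. They were taken by ranking the 2607 spots of that section that held at least 3000 unique molecular identifiers (UMIs, each standing for 1 captured RNA molecule) by the share of UMIs that came from Spp1. The lowest 261 spots are the low-Spp1 spots, out of 10383 spots in the 4 sections of the series. They were set against the 261 spots with the most Spp1 in the same section (high-Spp1 spots) and against 2863 spots of a section from a healthy rat. Spp1 chose the spots, so it was left out of the readouts and of the totals behind each level.

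RNA was captured on 10x Visium slides from frozen 10 µm kidney sections of Sprague-Dawley rats, 1 section per group. The PAN rat was fed ad libitum. Its kidney was taken at 5 months from the injection, which was 6 weeks past the end of treatment, and the healthy rat had no treatment. A PAN_LS-FMD section came from a rat with the same injection and times that went through 6 cycles of LS-FMD, a low-salt fasting-mimicking diet. A healthy_LS-FMD section came from an uninjected rat that had 1 cycle of that diet followed by 72 h of refeeding. With 1 section per group there was no replicate, so no test between groups was possible, and all intervals below are 95% intervals that cover counting error only.

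Spp1 encodes osteopontin, a secreted phosphoprotein of bone and epithelia that tubule cells and macrophages make in larger amounts when the kidney is injured. The nephron filters blood at the glomerulus, reabsorbs most solutes in the proximal tubule (segments S1, S2 and S3), and then passes urine through the thick ascending limb, the distal convoluted and connecting tubules and the collecting duct. Collecting ducts hold principal cells, which move water and sodium, and intercalated cells, which move acid and bicarbonate. A Visium spot covers several cells, often of different segments and with vessels and interstitium between them.

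Spp1 itself is given only as a description of how the spots were chosen. The low-Spp1 spots held 7381 Spp1 UMIs per 1000000 UMIs, against 33527 in the high-Spp1 spots and 332 in the healthy spots, and the 2085 spots between the extremes of the PAN section held 16323. The lowest of the 261 spots stood at 4020 on that scale (15 of 3731 UMIs). The last spot inside the boundary stood at 8762 (48 of 5478 UMIs) and the first outside it at 8773 (68 of 7751 UMIs). Of the 2863 healthy spots, 4 (0.140%) were above that boundary and 42 were above the lowest of the 261 spots. In the uninjected healthy_LS-FMD section 25 spots were above the boundary and 276 above the lowest of the 261 spots. The spots are called by their rule here and not spared tissue, since injury, matrix and immune genes, which the rule did not use, were above healthy in them.

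Depth was alike within the PAN section and higher in the healthy one. The median was 9691 UMIs in low-Spp1 spots, 9794 in high-Spp1 spots and 19541 in healthy spots, and without Spp1 the spots summed to 2776124, 2616808 and 58544117 UMIs in that order. In those sums 3 UMIs came to 1.08, 1.15 and 0.0512 CPM, where CPM is UMIs per 1000000. Mitochondrially encoded genes made up 2.79%, 2.85% and 4.88% of UMIs, and haemoglobin genes 0.120%, 0.0298% and 0.879%. Spot barcodes mark positions on the slide, and the PAN and healthy sections shared 2279 of them. Levels below are CPM summed over all spots of a set unless they are given per spot.

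The segments represented among the low-Spp1 spots were described first. Each spot took the class of whichever of 9 marker lists it scored highest on, relative to the healthy spots, which gave 8 classes. A class is a range of a score over mixed spots and not a cell type. Of the 8 classes, collecting duct had the largest share of its PAN spots among the low-Spp1 spots. It held 16.9% of low-Spp1 spots (44 spots, interval 12.5 to 22.0), against 4.21% of high-Spp1 spots (2.12 to 7.42) and 13.9% of healthy spots (12.7 to 15.3). Of the 176 collecting duct spots in the PAN section, 25.0% (18.8 to 32.1) were low-Spp1 spots, where the ranking gives 10% over the whole section.

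The other distal classes also held more of the low-Spp1 than of the high-Spp1 spots, with intervals that overlapped, and less than their share of healthy spots. Thick ascending limb held 10.7% of low-Spp1 spots (7.25 to 15.1), against 4.98% of high-Spp1 spots (2.68 to 8.37) and 12.1% of healthy spots. Distal convoluted and connecting tubule held 6.90% (4.14 to 10.7), against 2.68% (1.08 to 5.45) and 9.22%. Proximal tubule S1 and S2 lay in the opposite direction at 4.98% (2.68 to 8.37) of low-Spp1 spots, against 11.1% (7.57 to 15.6) of high-Spp1 spots and 14.1% of healthy spots. Podocyte spots made up 6.51% of low-Spp1 spots, against 9.96% of high-Spp1 spots and 9.40% of healthy spots, and inner medulla and thin limb made up 11.1% of both PAN sets and 10.2% of healthy spots.

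Some classes rested on markers that were themselves higher in the PAN section. In the inner medulla and thin limb list, 3 of 4 measured genes were above healthy in low-Spp1 spots and 1 was below. With the smooth muscle list left out, that class held 21.1% of low-Spp1 spots, 22.2% of high-Spp1 spots and 11.5% of healthy spots. Smooth muscle and mesangial was the commonest class among low-Spp1 spots at 30.3%, against 34.9% of high-Spp1 spots and 10.7% of healthy spots. Proximal tubule S3 held 12.6% of low-Spp1 spots, against 20.7% of high-Spp1 spots and 20.2% of healthy spots. That class turned on Bcat1, an aminotransferase of branched-chain amino acids, which stood at 11.9 CPM in low-Spp1 spots, 26.8 CPM in high-Spp1 spots and 1.02 CPM in healthy spots. With Bcat1 left out of the list, S3 held 3.07% of low-Spp1 spots, 1.53% of high-Spp1 spots and 21.7% of healthy spots, while collecting duct held 18.0%, 4.98% and 13.7%. Values given below for the S3 class carry this limit.

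**Figure D1:**
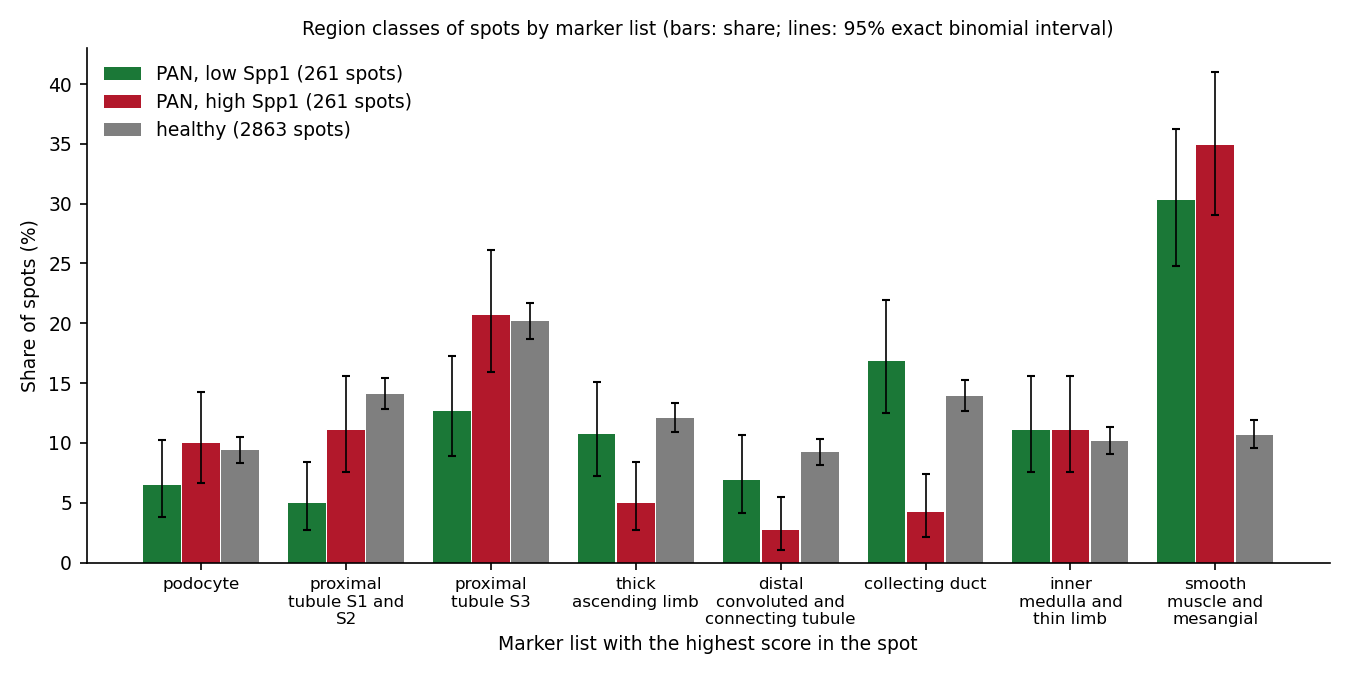
Share of spots (y axis, percent) in each of 8 classes given by its best-scoring marker list (x axis), for low-Spp1 PAN spots, high-Spp1 PAN spots and healthy spots, with exact binomial 95% intervals as lines. Collecting duct holds 16.9% of low-Spp1 spots against 4.21% of high-Spp1 spots, and smooth muscle and mesangial is the largest class in both PAN sets.

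Genes of the distal nephron and of the S3 segment were higher in the low-Spp1 than in the high-Spp1 spots. Over all genes, 10056 had at least 20 UMIs in the 2 sets together, and 672 of them (6.68%) were at least 1.5-fold higher and 612 (6.09%) at least 1.5-fold lower in low-Spp1 spots with a counting interval that excluded 1. The median log2 fold of all genes was -0.03. These counts come from the section in which the spots were chosen and describe it. In bulk counts of this kind, fewer cells of a type and less RNA per cell cannot be told apart.

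Among lists with 3 or more measured genes, the intercalated cell list had the highest median. All 7 measured genes of that list were higher, with a median log2 fold of 2.35. Slc4a1, the chloride and bicarbonate exchanger of acid-secreting intercalated cells, was at 330 CPM in low-Spp1 spots, 93.8 CPM in the spots between and 48.2 CPM in high-Spp1 spots, a 6.85-fold difference (5.68 to 8.31). Its level was 119 CPM in healthy spots weighted to the same classes, so the low-Spp1 spots stood above both in sum. Per spot its median was 55.7 CPM in low-Spp1, 0 CPM in high-Spp1 and 66.5 CPM in healthy spots. Foxi1, the transcription factor of intercalated cells, was 6.44-fold (3.91 to 11.2) higher, and Atp6v1g3, a subunit of their proton pump, 5.39-fold (4.73 to 6.16) higher. These genes were concentrated: the 26 spots with the most Slc4a1 held 67.0% of its UMIs, and 140 of the 261 spots had any.

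Principal cell genes were likewise higher, 7 of 7 measured, with a median log2 fold of 2.19. Per spot, Aqp2, the water channel that vasopressin moves to the apical membrane, had a lowest, median and highest level of 0, 207 and 7014 CPM in low-Spp1 spots, against 0, 96.3 and 1108 CPM in high-Spp1 spots and 0, 210.5 and 6896 CPM in healthy spots. The ranges overlapped throughout, and the median of the low-Spp1 spots lay close to that of healthy spots. Summed, Aqp2 was 4.97-fold (4.42 to 5.60) higher in low-Spp1 than in high-Spp1 spots, and its basolateral partner Aqp3 was 6.16-fold (4.57 to 8.48) higher. When every spot was thinned to 3000 UMIs, 52.1% of low-Spp1 spots, 28.7% of high-Spp1 spots and 52.3% of healthy spots held an Aqp2 UMI.

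Of the thick ascending limb list, 4 of 5 measured genes were higher, with a median log2 fold of 1.23. Umod, which encodes uromodulin, the most abundant urinary protein, had a lowest, median and highest spot level of 250.2, 4578 and 37804 CPM in low-Spp1 spots. In high-Spp1 spots these were 368, 2138 and 19865 CPM, and in healthy spots 1290, 5451 and 41059 CPM. Umod was present in all 261 low-Spp1 spots, and its summed level there was 2.34-fold (2.28 to 2.40) that of high-Spp1 spots. Slc12a1, the sodium, potassium and chloride cotransporter of this limb, was 2.64-fold (2.43 to 2.88) higher. All 3 measured genes of the distal convoluted and connecting tubule were higher too in summed level. Slc12a3, the thiazide-sensitive cotransporter, was at 151 CPM in low-Spp1 spots and 79.9 CPM in high-Spp1 spots. Calb1, a calcium-binding protein, was at 67.4 and 13.4 CPM. The 26 low-Spp1 spots richest in Slc12a3 held 77.5% of its UMIs in that set, and for Calb1 the share was 85.0%. Slc12a3 was present in 37.9% of low-Spp1 and 41.0% of high-Spp1 spots, and Calb1 in 20.7% and 12.6%. The median spot level of each gene was 0 CPM in both sets.

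The proximal tubule divided by segment. In the S3 list 3 of 6 genes were higher and Bcat1 was lower, with a median log2 fold of 1.82. Spots ranked in the same way gave S3 medians of 0.28 in healthy, 1.13 in PAN_LS-FMD and 1.27 in healthy_LS-FMD, so this direction was not particular to PAN. Kap, an androgen-regulated protein of the proximal tubule, was at 4901 CPM in low-Spp1 spots, 1858 CPM in the spots between and 817 CPM in high-Spp1 spots, a 6.00-fold difference (5.73 to 6.28). Slc7a13, an amino acid transporter of S3, was 7.13-fold (6.22 to 8.21) higher at 640.5 against 89.8 CPM, and Slc7a12, a related transporter, 9.27-fold (5.11 to 18.4) higher. Healthy spots weighted to the same classes stood above both sets, at 17695 CPM for Kap and 2499 CPM for Slc7a13. Kap was spread widely over the low-Spp1 spots, with a lowest, median and highest of 0, 1618 and 21420.2 CPM, against 0, 549 and 4180.1 CPM in high-Spp1 spots and 2804, 16113 and 38801 CPM in healthy spots.

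Organic ion transporters, which carry drugs and metabolites across the proximal tubule, followed S3: 5 of 10 were higher and none lower, Slco1a6 by 5.67-fold (4.76 to 6.80). Their median log2 fold was 1.09, and the same ranking gave 0.47 in healthy, 0.48 in PAN_LS-FMD and 1.55 in healthy_LS-FMD. Gclc, the rate-limiting enzyme of glutathione synthesis, was 4.13-fold (3.90 to 4.36) higher. It is of the antioxidant list, in which 3 of 12 measured genes were higher, none lower and 9 neither, with a median log2 fold of 0.12. The S1 and S2 list did not follow S3. Of its 10 measured genes 4 were lower and 1 was higher, and Slc5a2, the glucose cotransporter SGLT2 of the early proximal tubule, was 1.85-fold (1.64 to 2.09) lower at 158 CPM in low-Spp1 spots and 292 CPM in high-Spp1 spots. Gatm, which makes the precursor of creatine, was 1.78-fold lower, while Miox, the inositol oxygenase of proximal tubules, was 1.74-fold higher. The S1 and S2 class itself held 4.98% of low-Spp1 and 11.1% of high-Spp1 spots. Within that class (13 and 29 spots), which these genes defined, the list median was 0.43, with 3 of 10 higher and none lower. In other classes it went both ways, such as 0.72 in distal convoluted and connecting tubule and -0.83 in thick ascending limb spots. Lrp2, the endocytic receptor megalin, was at 959 and 1084 CPM and was called neither way.

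Injury genes were lower in low-Spp1 than in high-Spp1 spots. Of the 18 measured genes of the tubular injury list, 12 were lower and 1 was higher, with a median log2 fold of -0.81. Injury medians from the same ranking were -0.999 in healthy, -0.89 in PAN_LS-FMD and -1.02 in healthy_LS-FMD, so this direction was not particular to PAN. Havcr1, the injury marker KIM-1 of proximal tubules, had a lowest, median and highest spot level of 0, 61.9 and 607 CPM in low-Spp1 spots, against 0, 420.4 and 3246 CPM in high-Spp1 spots and 0, 0 and 569 CPM in healthy spots. The ranges overlapped, but the summed level was 6.65-fold (5.79 to 7.66) lower in low-Spp1 spots. Lcn2, an iron-siderophore binding protein released by injured tubules, was 2.92-fold (2.58 to 3.32) lower at 122 CPM in low-Spp1 spots and 358 CPM in high-Spp1 spots. The cytokine Il24 was 4.48-fold (3.27 to 6.25) lower, and Fgb, a fibrinogen chain, 4.33-fold (2.75 to 7.08) lower.

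Other genes at the low end of the same comparison were Car3, a carbonic anhydrase, at 7.86-fold lower (5.24 to 12.2), the laminin chain Lama1 at 6.26-fold lower (3.88 to 10.6) and Tgfb2, a growth factor of the TGF-beta family, at 4.60-fold lower (2.93 to 7.50). Gja1, the gap junction protein connexin 43, was 3.78-fold (3.12 to 4.61) lower. Of the cell cycle genes 6 of 13 were lower, with none higher, Mki67, a marker of dividing cells, standing at 8.28 CPM in low-Spp1 spots and 26.8 CPM in high-Spp1 spots. In the matrix list 7 of 24 were lower and 1 was higher, with a median log2 fold of -0.46. The same ranking gave matrix medians of -0.60 in healthy, -0.71 in PAN_LS-FMD and -0.85 in healthy_LS-FMD. Mgp, an inhibitor of calcification, was 2.10-fold (2.05 to 2.15) lower, whereas Lum, the small proteoglycan lumican, was 2.27-fold (1.55 to 3.39) higher. The 26 low-Spp1 spots richest in Lum held 84.0% of its UMIs in that set. It was present in 15.7% of low-Spp1 and 11.9% of high-Spp1 spots, with a median of 0 CPM in both. Col1a1, the main chain of type I collagen, was at 327 CPM in low-Spp1 spots and 415 CPM in high-Spp1 spots, short of 1.5-fold.

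Macrophage and antigen-presentation genes did not differ by the rule in any of 19 measured members between low-Spp1 and high-Spp1 spots. Cd74, the invariant chain of MHC class II, was at 3771 and 3736 CPM, and C1qa, a complement component made by macrophages, at 303 and 299 CPM. Summed genes of other cell types did move with the ranking. Of the B and plasma cell genes 4 of 6 were higher (Ighm 2228 CPM in low-Spp1 spots and 881 CPM in high-Spp1 spots), as were 6 of 7 smooth muscle genes (Myh11, smooth muscle myosin, 67.4 and 15.7 CPM) and 4 of 4 red blood cell genes (Hba-a3 745 and 188 CPM). Their part in the differences above was not tested. The 26 low-Spp1 spots richest in Myh11 held 82.4% of its UMIs in that set. Per spot, the summed smooth muscle list had a median of 635 CPM in low-Spp1 spots and 610 CPM in high-Spp1 spots.

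Along the whole order of Spp1 the lists did not all change in the same way. In 10 consecutive bins of 260 or 261 spots, the summed level of the injury list was 4155 CPM in the bin with the least Spp1 and 7205 CPM in the bin with the most. The S3 list stood at 5631 CPM in the low-Spp1 spots, 3759.8 CPM in the next bin and 976 CPM in the last. Intercalated cell genes stood at 1242 CPM in the low-Spp1 spots, 639.8 CPM in the next bin and 232 CPM in the last, so the low-Spp1 spots were set off from their neighbours in rank. The S1 and S2 list was lowest in the low-Spp1 spots at 4544 CPM and highest in the fifth bin at 6363 CPM.

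**Figure D2:**
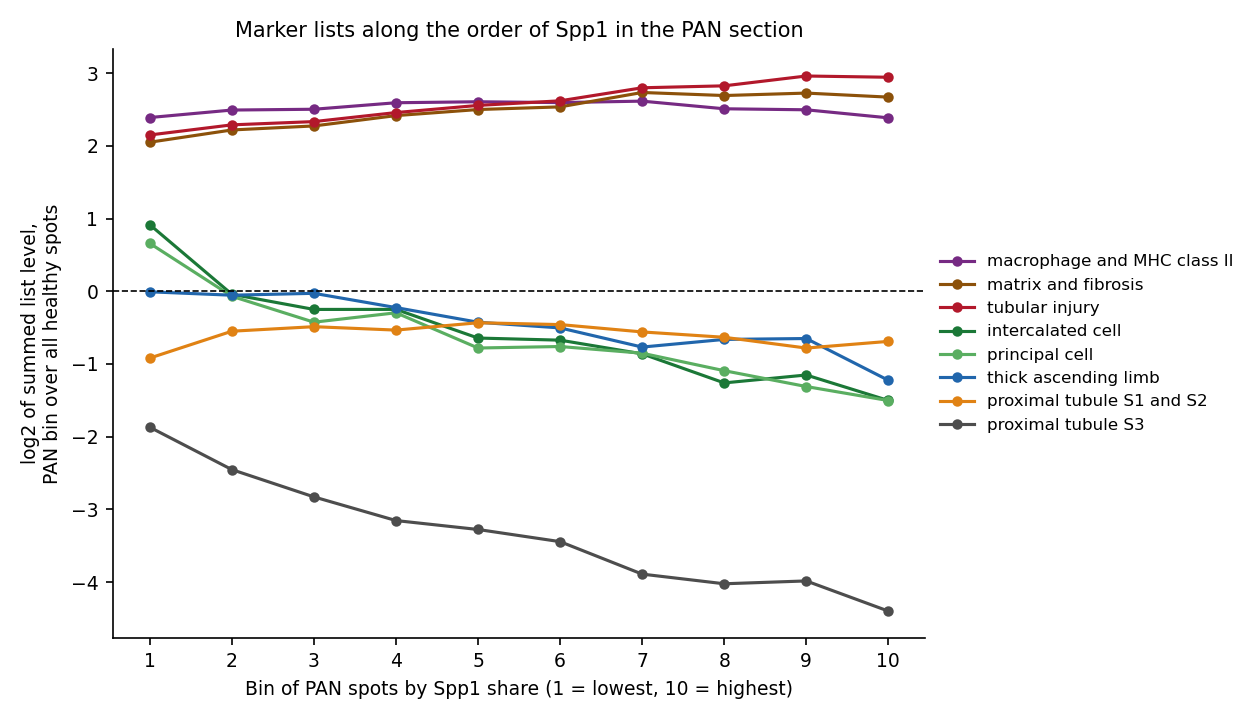
Summed level of 8 marker lists as log2 over the healthy spots (y axis) in 10 bins of PAN spots ordered by Spp1 share (x axis, bin 1 being the low-Spp1 spots). Injury, matrix and macrophage lists lie above the healthy level in every bin, while the 2 collecting duct lists lie above it only in bin 1 and the S3 list lies below it throughout. These are sums: for the 2 collecting duct lists the median low-Spp1 spot lies below the median healthy spot.

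**Figure D3:**
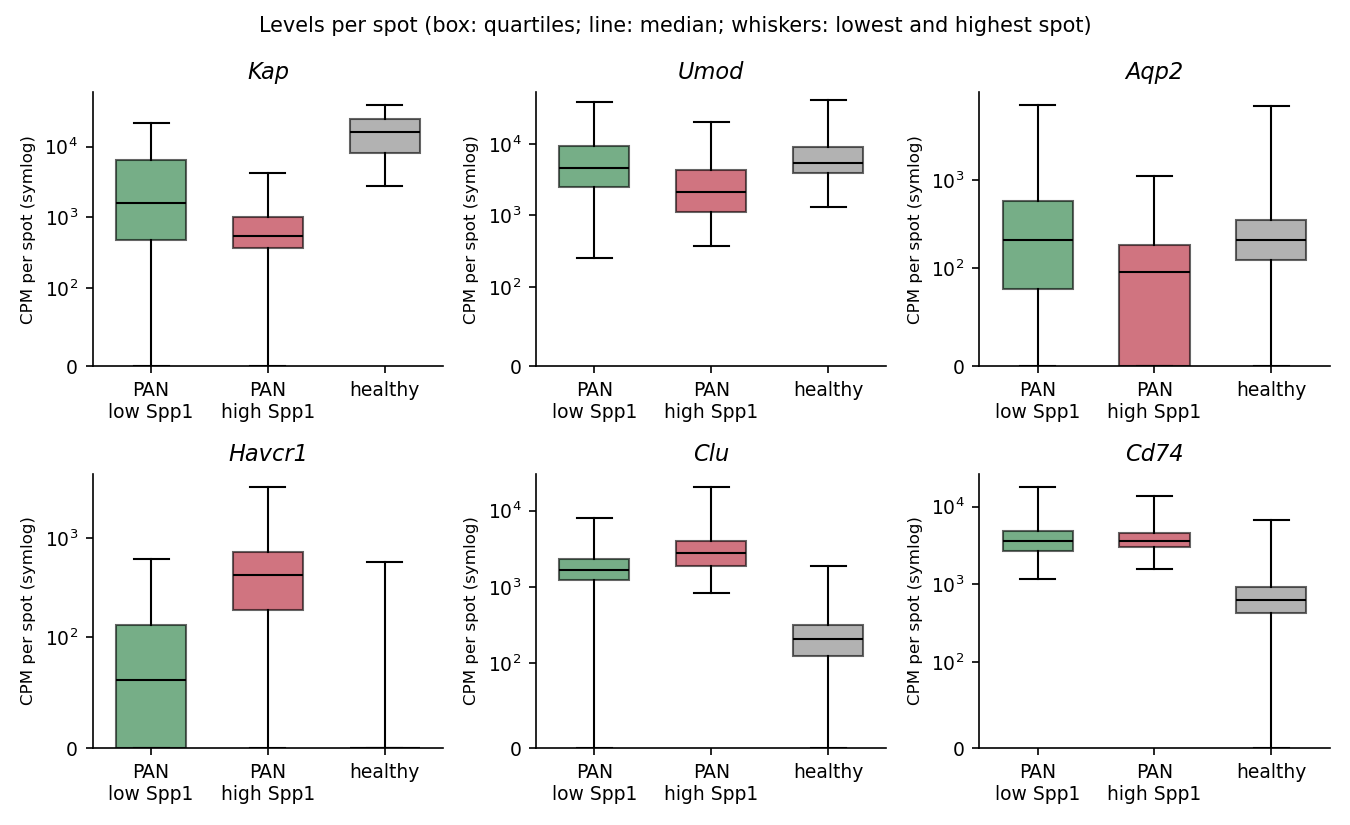
Level per spot in CPM (y axis, linear below 100 and logarithmic above) of 6 genes in low-Spp1 PAN spots, high-Spp1 PAN spots and healthy spots, with boxes for quartiles, lines for medians and whiskers for the lowest and highest spot. Median Kap is 1618 CPM in low-Spp1 spots and 16113 CPM in healthy spots, while median Umod and Aqp2 of low-Spp1 spots lie near the healthy medians.

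The second comparison asked what still differed from healthy tissue where Spp1 was low. Because the mix of classes differed, the healthy level of each gene was weighted to the classes of the low-Spp1 spots. Smooth muscle and mesangial, a class that rested on markers higher in PAN, carried 31.4% of that weight. Of 12018 genes measured, 4502 (37.5%) were higher and 797 (6.63%) lower in low-Spp1 spots, with a median log2 fold of 0.49 over all genes. Scaled by the median of gene ratios in place of totals, the counts were 2168 higher and 2001 lower, so the share of calls that were higher was 85.0% by totals and 52.0% by ratios. List medians are therefore read against 0.49. High-Spp1 spots set against healthy spots with weights for their own classes gave 5133 higher (43.2%) and 1185 lower (9.97%) of 11885 genes, with a median of 0.56. Both comparisons share the healthy spots, and their values are only placed side by side.

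Injury, matrix and immune genes were above healthy in the low-Spp1 spots. In the injury list 16 of 18 were higher, with a median log2 fold of 1.99 in low-Spp1 spots and 2.82 in high-Spp1 spots. Lcn2 was 12.7-fold (10.9 to 14.7) and Havcr1 9.50-fold (7.98 to 11.3) above healthy. Clu, the secreted chaperone clusterin, had a lowest, median and highest of 0, 1676 and 7903 CPM over low-Spp1 spots, 835, 2796 and 20517 CPM over high-Spp1 spots and 0, 206 and 1864 CPM over healthy spots. Thinned to 3000 UMIs, 98.5% of low-Spp1 spots, 99.2% of high-Spp1 spots and 49.3% of healthy spots held a Clu UMI, whereas Havcr1 was held by 21.1%, 67.8% and 2.38%.

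All 24 measured matrix genes were higher than healthy, with a median log2 fold of 2.45 in low-Spp1 spots and 2.94 in high-Spp1 spots. Col1a1 was 6.43-fold (5.92 to 6.98) higher. Cthrc1, a secreted protein of activated fibroblasts, was 18.9-fold (11.5 to 31.8) and Lum 12.4-fold (8.85 to 17.4) higher. Of the TGF-beta and YAP signalling list 10 of 11 genes were higher and 1 was lower, with a median log2 fold of 1.63 in low-Spp1 spots and 1.62 in high-Spp1 spots.

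Every measured gene of the macrophage (18), T and NK cell (9), B and plasma cell (6) and complement (9) lists was higher in low-Spp1 than in healthy spots, with median log2 folds of 2.36, 2.34, 4.04 and 2.37. In high-Spp1 spots the same medians were 2.44, 2.09, 2.99 and 2.52. With PAN_LS-FMD or healthy_LS-FMD in place of healthy, RT1-Bb of the macrophage list was lower in low-Spp1 spots, at log2 folds of -1.25 and -1.43. Ighm, the heavy chain of IgM, was 73.6-fold (68.7 to 78.9) above healthy and present in all 261 low-Spp1 spots. The 26 spots richest in it held 43.2% of its UMIs. Ccl21, the chemokine that draws lymphocytes and dendritic cells to lymphoid tissue, was 28.4-fold (26.7 to 30.3) higher, Cd79b, a chain of the B cell receptor, 13.9-fold (10.2 to 18.9), and Mrc1, the macrophage mannose receptor, 11.6-fold (8.70 to 15.5). Pla2g2a, a secreted phospholipase, had the highest fold by the naming rule at 36.8 (25.9 to 53.1). Its 26 richest low-Spp1 spots held 71.1% of its UMIs in that set, and 23.4% of low-Spp1 spots had any.

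Proximal tubule genes of metabolism and transport were below healthy in the low-Spp1 spots. Kap was 3.61-fold (3.55 to 3.67) and Slc7a13 3.90-fold (3.72 to 4.09) lower. In the fatty acid oxidation list 11 of 17 were lower and 1 was higher, with a median log2 fold of -0.77 in low-Spp1 spots and -0.83 in high-Spp1 spots. Acaa2, the last enzyme of the mitochondrial cycle, was 4.70-fold (4.16 to 5.32) lower at 96.2 CPM in low-Spp1 spots and 452 CPM in healthy spots. Of the gluconeogenesis genes 6 of 8 were lower and 2 were higher. Pck1, the enzyme that commits the pathway, was 3.28-fold (3.05 to 3.55) lower. Of the organic ion transporters 8 of 12 were lower and none was higher. Of the 13 genes that earlier results had named lowest in the PAN section, 12 were lower, a list chosen on these sections and so no independent evidence of direction. Kap and Slc7a13 above and Cyp2c11 below belong to that list, as does a member of the organic ion transporter list.

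Some genes were lower by more. Rbp4, a carrier of retinol, was 17.3-fold (12.5 to 24.7) and Cyp2c11, a cytochrome P450 that is male-specific in rat liver, 16.2-fold (9.78 to 28.9) lower than in healthy spots. Rbp4 stood at 13.0 CPM in low-Spp1 and 6.11 CPM in high-Spp1 spots. Among red blood cell genes all 5 were lower, with a median log2 fold of -3.09 in low-Spp1 spots and -5.28 in high-Spp1 spots. The healthy section stood apart in blood content: haemoglobin genes were 0.878% of its UMIs, against 0.0922% in PAN, 0.110% in PAN_LS-FMD and 0.151% in healthy_LS-FMD. With PAN_LS-FMD in place of healthy the red blood cell median was 0.11. Of the podocyte genes 4 of 9 were lower and 1 was higher. The median log2 fold of that list was -0.17 in low-Spp1 spots and -0.60 in high-Spp1 spots.

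The list medians of thick ascending limb, principal cell, intercalated cell and distal convoluted genes lay nearer healthy in low-Spp1 than in high-Spp1 spots. By genes called, the principal cell list differed in as many in both sets, in opposite directions. The inner medulla and thin limb median lay further from healthy in low-Spp1 spots, at 1.16 against 0.69 in high-Spp1 spots. None of the 5 thick ascending limb genes was called in low-Spp1 spots, with a median log2 fold of 0.47, while in high-Spp1 spots 3 were lower and 1 higher with a median of -0.60. Umod was at 6937 CPM in low-Spp1 spots and 7357 CPM in healthy spots. Of the principal cell genes 5 of 8 were higher (median 0.75) and of the intercalated genes 5 of 7 (median 0.73), with none lower. In high-Spp1 spots none were higher and 5 of 8 and 6 of 7 were lower, with medians of -0.94 and -1.05. Scaled by the median of ratios, the 3 list medians in low-Spp1 spots were -0.00, 0.27 and 0.25. Per spot, the summed principal and intercalated lists had medians of 459 and 332 CPM in low-Spp1 spots. In all healthy spots these were 545 and 359 CPM. Of the 3 measured distal convoluted and connecting tubule genes 2 were lower and 1 was higher, with a median of -0.75 in low-Spp1 spots and -1.35 in high-Spp1 spots. Slc12a3 was 1.68-fold (1.52 to 1.85) and Calb1 1.85-fold (1.59 to 2.15) lower, and Trpv5, a calcium channel of this segment, was 3.28-fold (2.03 to 5.09) higher. Set against the 10% of healthy spots with the least Spp1, Calb1 and the list median were both at 0.12 on the log2 scale. Among reabsorption genes none of 6 was called, with Lrp2 at 959 CPM in low-Spp1 spots and 1107 CPM in healthy spots. The median log2 fold of that list was -0.20 (-0.67 when scaled by the median of ratios), beside 0.49 for all genes. In high-Spp1 spots it was 0.24, with 3 of 6 higher and 1 lower.

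**Figure D4:**
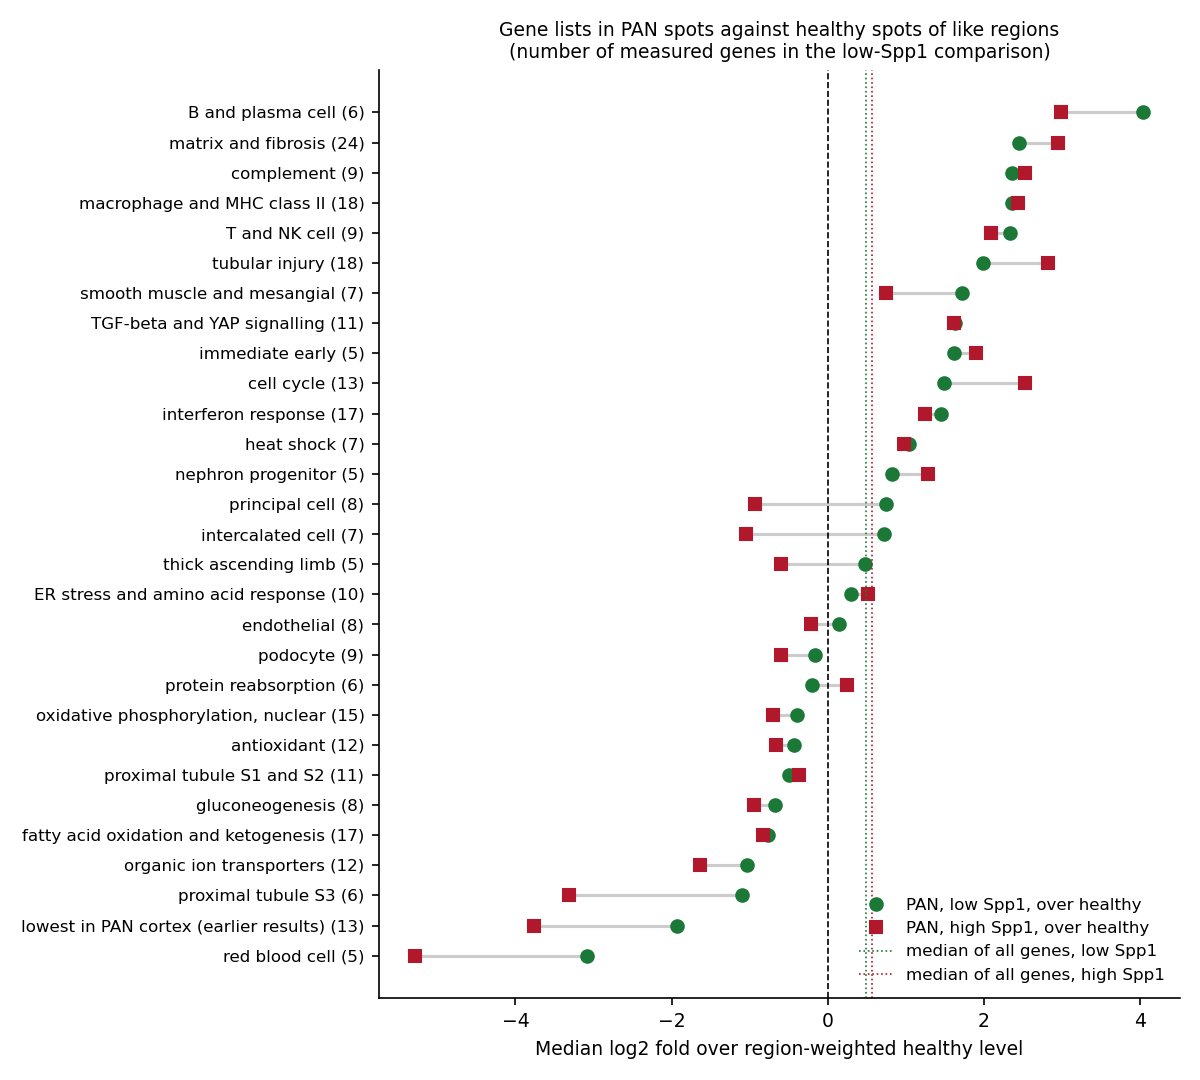
Median log2 fold over the class-weighted healthy level (x axis) for each gene list with at least 5 measured genes (y axis, number of genes in brackets), in low-Spp1 spots (circles) and high-Spp1 spots (squares), with dotted lines at the median of all genes. Principal cell, intercalated cell and thick ascending limb lists lie above 0 in low-Spp1 spots (thick ascending limb at -0.00 when scaled by the median of ratios) and below 0 in high-Spp1 spots, while injury, matrix and immune lists lie above 1 in both.

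The differences from healthy spots were then followed within each class. Among collecting duct spots (44 low-Spp1, 11 high-Spp1 and 399 healthy), 2996 of 9889 measured genes (30.3%) were higher and 702 (7.10%) lower in low-Spp1 than in healthy spots. Of the injury list 12 of 16 were higher there, and the summed list stood at 4659 CPM in low-Spp1, 7285 CPM in high-Spp1 and 1048 CPM in healthy spots. Of the matrix list 17 of 19 were higher (8318, 12025 and 1924 CPM). Principal cell genes summed to 5027, 639 and 2421 CPM in those spots, but they also defined the class.

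Over all 8 classes the summed injury list of low-Spp1 spots lay between 3806 and 4659 CPM, against 790 to 1078 CPM in healthy spots. Cd74 was between 4.23-fold (thick ascending limb) and 7.63-fold (proximal tubule S3) above healthy and Col1a1 between 3.94-fold (podocyte) and 9.96-fold (S3). Leaving out S3, which turned on Bcat1, the upper ends were 5.78-fold (smooth muscle and mesangial) and 8.57-fold (collecting duct). The smooth muscle and mesangial class also rested on markers that were higher in the PAN section, so its values carry a like limit. Havcr1 lay between 7.04-fold (smooth muscle and mesangial) and 40.4-fold (S1 and S2, on 26 UMIs in 13 spots). Every interval of these 3 genes lay above 1. Kap was below healthy in every class, at 2119 CPM in low-Spp1 and 15681 CPM in healthy collecting duct spots and at 7229 and 13727 CPM in podocyte spots. It belongs to the list chosen as lowest in PAN on these sections, so its direction is no independent evidence.

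**Figure D5:**
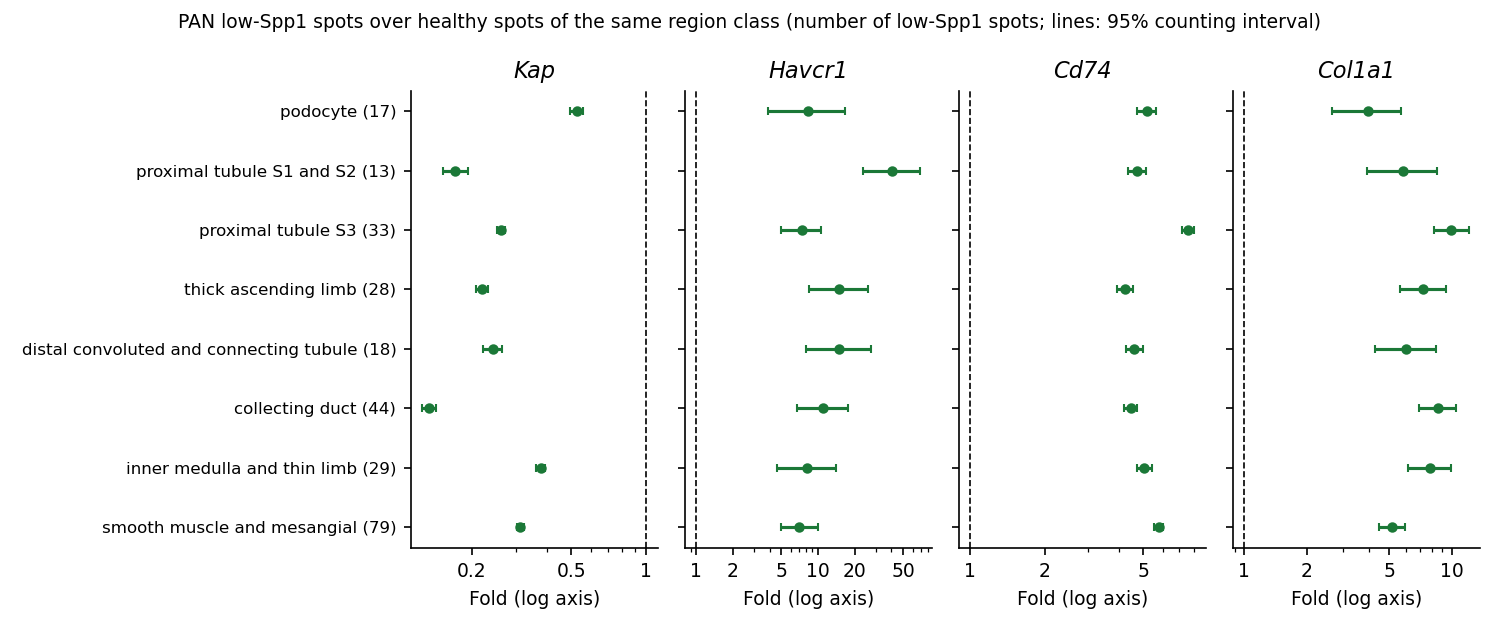
Fold of low-Spp1 PAN spots over healthy spots of the same class (x axis, log scale) for 4 genes, by class (y axis, number of low-Spp1 spots in brackets), with 95% counting intervals as lines. Havcr1, Cd74 and Col1a1 lie above 1 and Kap below 1 in all 8 classes. Kap belongs to a list chosen as lowest in PAN on these sections.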

How the data were processed

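The data were whole-number UMI counts per gene and spot from 4 rat kidney sections, deposited by the authors without normalisation. The healthy matrix was written by Space Ranger 2.0.1 and the other 3 by Space Ranger 1.2.1, per the file headers, so version and section cannot be told apart in comparisons with healthy spots. Neither genome build nor annotation was given in the sources used here. Each matrix listed the same 32402 features. Spot coordinates were not used here. Doublets were not called, because spots hold several cells.

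The members, the 33 gene lists, the rule for named genes and the comparisons were chosen with earlier results of these data known. Of 364 list entries 352 were found by symbol, and the other 12 were not analysed here. Spots under 3000 UMIs were left out, 122 in the PAN and 6 in the healthy section. UMIs were summed over spots and divided by all UMIs except Spp1. Folds of low-Spp1 over high-Spp1 spots have exact 95% intervals of 2 Poisson counts. Folds over healthy spots used healthy levels weighted by the low-Spp1 spots' share of UMIs per class, with approximate intervals from effective counts. A gene was measured at 20 UMIs over both sets and called at 1.5-fold with an interval excluding 1. Log2 folds carry a prior count of 0.5. Shares have exact Clopper-Pearson intervals.

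Class scores used totals with Spp1. A spot's score on a list was the mean over its genes of CPM relative to the healthy mean, as log2 after adding 0.1, scaled to the mean and SD of healthy spots. Named genes were the 12 highest and 12 lowest folds per comparison with at least 100 UMIs over both sets and 10 in the lower one, up to 4 per list with at least 50 UMIs, and a fixed set. In the first comparison the spots between the extremes had to lie between. In the second the fold over all healthy spots had to reach 1.5 in the same direction. Immunoglobulin, haemoglobin, ribosomal, mitochondrial and provisional symbols were left out of the highest and lowest folds. The text gives a selection of the genes so named, and some of them are not reported here. The calling script was tested on simulated data. Alternatives varied the share of spots, the UMI minimum per spot and per gene, the totals, the ranking within classes, the healthy side and the marker lists. Python 3.11.15, numpy 2.4.6, scipy 1.17.1, pandas 2.3.3 and matplotlib 3.10.9 were used.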

Additional observations from a re-analysis of the deposited data

Results flagged for a closer look

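The spots with the least and the most Spp1 were taken in the same way in each section. The list medians were opposite in sign in the PAN and healthy sections for 16 of 33 lists, and for 3 of them both were beyond 1.5-fold. The median log2 fold of low-Spp1 over high-Spp1 spots for thick ascending limb genes was 1.23 in the PAN section and -0.89 in the healthy section. For smooth muscle and mesangial genes it was 1.19 in the PAN section and -0.81 in the healthy section. For B and plasma cell genes it was 1.24 in the PAN section, over 6 measured genes, and -1.22 in the healthy section, over 3. Among the rest, the PAN and healthy medians were 2.19 and -0.58 for principal cell, -0.35 and 1.16 for proximal tubule S1 and S2, 0.47 and -0.79 for endothelial, 0.45 and -1.03 for T and NK cell, and 0.49 and -1.35 for inner medulla and thin limb genes. In PAN_LS-FMD and in healthy_LS-FMD the medians of the 3 lists were -0.39 and -1.43 for thick ascending limb, -0.51 and -0.78 for smooth muscle, and 0.57 and 0.37 for B and plasma cells. The Spp1 levels ranked were far apart: 7381 and 33527 CPM in low-Spp1 and high-Spp1 spots of the PAN section, against 22.7 and 1935 in those of the healthy section. The difference between the sections was not tested, since each is a single section.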

How the results depend on the processing

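No paired analysis was possible because each group has 1 section, so that the groups share only the replicate number 1. Of the counts of genes and class shares recomputed under the alternatives, 106 stayed within 1.5 times the count or inside the interval of the share, and 12 moved. Against high-Spp1 spots, a minimum of 100 UMIs gave 440 higher and 374 lower genes. Against healthy spots, the median of ratios gave 2168 higher and 2001 lower, and the healthy_LS-FMD section as the other side gave 2294 higher. Scores on thinned spots put 8.81% of low-Spp1 spots in S3 and 3.07% in distal convoluted and connecting tubule. The next 2 changes of lists were chosen after seeing the data. Without the smooth muscle list, podocyte held 10.3%, thick ascending limb 16.9%, inner medulla 21.1% and smooth muscle 0% of low-Spp1 spots, and without Bcat1 S3 held 3.07%.

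Of list medians 735 stayed within 0.25 of the value reported, 145 moved further and 11 reversed. Of values of named genes 4645 stayed inside the counting interval, 877 did not and 19 reversed. Reversed log2 values against high-Spp1 spots were -0.014 for Hbb with 5% of spots and -0.21 for Trpv5 with ranking within classes. Against healthy spots the nephron progenitor median, over 5 measured genes, was -0.68 with 5% of spots, -1.78 at 100 UMIs, -0.20 with ranking within classes, -0.88 against the 10% of healthy spots with the least Spp1, -0.60 without Bcat1, and -0.50 and -0.61 against PAN_LS-FMD and healthy_LS-FMD. Car3 was -0.45 with 5% of spots, and Calb1 and the distal convoluted median were both 0.12 against the healthy spots with the least Spp1. With PAN_LS-FMD as the other side, the red blood cell median was 0.11, Gal 0.77, Alas2 0.31, Hba-a1 0.45, Hba-a2 0.11, Hba-a3 0.11 and RT1-Bb -1.25. With healthy_LS-FMD, the principal cell median was -0.32, the inner medulla median -0.91, Scnn1g -0.021, Phgdh 0.25, Slc6a12 -1.58, Aqp2 -0.29, Myh11 -0.0060, Eci1 0.13, Gpx3 0.45, Aqp4 -0.35 and RT1-Bb -1.43. The cause of these changes was not tested. Depth limited the gene counts, since genes under 20 UMIs over both sets were not measured.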

Other observations

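Stress and defence lists that the comparisons above leave out lay in different directions from healthy tissue in the low-Spp1 spots. In the interferon list 16 of 17 measured genes were higher, with a median log2 fold of 1.45 in low-Spp1 spots and 1.25 in high-Spp1 spots, and Mx1, an antiviral GTPase, was at 38.9 CPM in low-Spp1 spots, 30.6 CPM in high-Spp1 spots and 7.81 CPM in class-weighted healthy spots. All 5 measured immediate early genes were higher, Egr1 by 7.44-fold (6.00 to 9.19), and 5 of 7 heat shock genes, Hspa1b, an inducible chaperone, by 5.30-fold (4.52 to 6.20). Of 10 genes of the ER stress and amino acid response list 2 were higher, among them Hspa5, a chaperone of the endoplasmic reticulum, by 2.41-fold (2.28 to 2.55), and 2 lower, with a median of 0.29 (-0.18 when scaled by the median of ratios) beside 0.49 for all genes. Of 12 antioxidant genes 5 were lower and 1 was higher, with a median of -0.43 in low-Spp1 spots and -0.66 in high-Spp1 spots. Mcpt1, a protease of mast cells, stood at 24.1 CPM in low-Spp1 spots, 43.9 CPM in high-Spp1 spots and 0.242 CPM in class-weighted healthy spots, on 67, 115 and 11 UMIs. Nuclear genes of oxidative phosphorylation were lower than healthy in 6 of 15, with a median log2 fold of -0.39 in low-Spp1 spots and -0.71 in high-Spp1 spots. Their summed level had a lowest, median and highest spot of 6677, 15650 and 26846 CPM in low-Spp1 spots and 10104, 23732 and 36247 CPM in healthy spots.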
